A study of Mus musculus with 48 samples.

Results

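The Dlk1-Dio3 cluster is an imprinted stretch of mouse chromosome 12 whose genes are read from only 1 parental copy, and its transcripts were followed here through reprogramming of mouse embryonic fibroblasts (MEFs) to induced pluripotent stem cells (iPSCs) and compared with those of embryonic stem cells (ESCs). Its members were taken by name: Dlk1, Rtl1 and Dio3, which code for proteins, and Meg3, Rian and Mirg, which give long non-coding RNAs. These 6 genes were among 24264 transcript rows of a table of read counts, and all 6 passed the filter on low counts that left 15630 rows for testing, although Rtl1 passed it with only 311 reads in 48 libraries. No member was chosen for its level, though the members were named with earlier results of these data known.

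Imprinting of this cluster is set by a control region between Dlk1 and Meg3 that is methylated on the copy inherited from the father. Dlk1, Rtl1 and Dio3 are expressed from the paternal copy, and Meg3, Rian and Mirg, with the small nucleolar RNAs and microRNAs that they host, from the maternal copy. In some mouse iPSC lines methylation spreads to the maternal copy and the maternal RNAs are lost, and such lines contribute poorly to mice, so the level of Meg3 and Rian is widely used as a mark of iPSC quality. Methylation and the parental copy of each read were not measured in these libraries.

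RNA was counted at its 5′ ends in 48 libraries of 20 conditions. Transgenic cells carried a single doxycycline-inducible cassette of c-Myc, Klf4, Oct4 and Sox2, in the order MKOS or in the order OKMS with a shorter Klf4, targeted to the Sp3 locus of TNG ESCs, a line with a GFP reporter in Nanog, together with the reverse transactivator under the CAG promoter. MEFs of the wild type (wt MEF) and from chimaeras of both cassettes (MKOS MEF and OKMS MEF, in which host cells are also present) gave 2 libraries each. Cells sorted during reprogramming in doxycycline and vitamin C gave 3 libraries for each of 8 gates. The paper describes sorting of these gates on day 10. All gates held cells without CD44, either without ICAM1 (2N) or with ICAM1 (3N), and without (-) or with (+) Nanog-GFP. They were 2N-, 3N- and 3N+ cells with E-cadherin (Ecad+) of both cassettes, and 2N- and 3N- cells without it (Ecad-) of OKMS. Established iPSCs gave 2 libraries for each of MKOS iPSCs -dox and OKMS iPSCs -dox, grown without doxycycline, MKOS iPSCs 2i and OKMS iPSCs 2i, grown with inhibitors of MEK and GSK3, and D6, an iPSC line in which a piggyBac transposon had placed MKOS in Sp3. ESCs gave 2 libraries for each of E14, TNG ESCS, TNG MKOS ESCs and TNG OKMS ESCs. No ESC condition was in 2i, and iPSCs in general were described as grown with LIF without D6 being named. Apart from D6 and E14, the iPSC and ESC lines all derive from TNG ESCs. D6 is a single line of its own origin, so that line and cell type cannot be told apart for D6.

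Depth ran from 1429717 to 14174725 reads on transcripts, with a median of 6243255, and levels are given in CPM (reads per 1000000 of these reads). A level of 3 reads, taken as the floor, was 0.212 CPM in the deepest library and 2.10 CPM in the shallowest, counting error only. Log2 levels of the same condition correlated with r of 0.936 to 0.983. The labels do not say that the libraries of a condition came from separate cultures, so p-values measure only the spread between these libraries, which may be technical. Labels were checked with marker lists. The summed level of 8 pluripotency markers was 10856 to 17928 CPM in ESCs, 12391 to 23150 CPM in iPSCs and 2.04 to 11.5 CPM in MEFs, and that of 10 fibroblast markers was 3144 to 5702 CPM in MEFs, 7.84 to 28.0 CPM in iPSCs and 3.93 to 9.42 CPM in ESCs.

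Dlk1 lies at chr12:109452485-109463336, Meg3 at chr12:109540996-109571729, Rian at chr12:109603945-109661716, Mirg at chr12:109734981-109749458 and Dio3 at chr12:110279230-110281097, all on the plus strand of GRCm38.p6 in the RefSeq annotation. Rtl1 lies on the minus strand at chr12:109564900-109604418. Its annotated span overlaps Meg3 and Rian, but the row that was counted stands at position 109590168, between them, with a length of 5335 bases. Rows of the plus strand such as 6430411K18Rik and Mir433 lie in that stretch. Whether reads were counted by strand was not given in the sources used here, so the 311 reads of Rtl1 may hold reads of its antisense neighbours. Reads that mapped to 1 place only made up 100% of those of Dlk1, Mirg and Dio3, 91.3% of those of Rtl1, 86.6% of those of Rian and 69.0% of those of Meg3. Between Dlk1 and Dio3 the table held 75 rows, of which 56 had a read, and the 6 members took 83.9% of the 80640 reads there.

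Promoters of the members the results turn on are shown because reads of a 5′ end library fall at start sites. Each runs from 250 bases before to 50 bases after a RefSeq start (GRCm38.p6, plus strand), and capitals mark matches, on either strand, to TATAAA (held by 13.62% of 32851 mouse promoters of this length), to TGACGTCA, the cyclic AMP response element (1.79%), to GGGCGG, the core of a GC box (35.66%), or to CCAAT (37.41%). The sequences cover chr12:109540746-109541045 for Meg3, chr12:109603695-109603994 for Rian, chr12:110278980-110279279 for Dio3 and chr12:109452573-109452872 for Dlk1.
Meg3: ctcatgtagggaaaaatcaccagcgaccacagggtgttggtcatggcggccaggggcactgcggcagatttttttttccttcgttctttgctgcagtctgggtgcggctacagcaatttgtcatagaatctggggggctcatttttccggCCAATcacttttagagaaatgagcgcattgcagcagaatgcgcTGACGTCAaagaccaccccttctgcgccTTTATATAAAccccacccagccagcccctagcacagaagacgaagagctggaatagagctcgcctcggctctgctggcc
Rian: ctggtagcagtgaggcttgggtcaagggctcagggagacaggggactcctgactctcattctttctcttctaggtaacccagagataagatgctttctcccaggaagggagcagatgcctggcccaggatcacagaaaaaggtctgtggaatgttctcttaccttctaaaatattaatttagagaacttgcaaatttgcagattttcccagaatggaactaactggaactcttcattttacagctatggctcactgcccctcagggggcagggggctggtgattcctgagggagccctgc
Dio3: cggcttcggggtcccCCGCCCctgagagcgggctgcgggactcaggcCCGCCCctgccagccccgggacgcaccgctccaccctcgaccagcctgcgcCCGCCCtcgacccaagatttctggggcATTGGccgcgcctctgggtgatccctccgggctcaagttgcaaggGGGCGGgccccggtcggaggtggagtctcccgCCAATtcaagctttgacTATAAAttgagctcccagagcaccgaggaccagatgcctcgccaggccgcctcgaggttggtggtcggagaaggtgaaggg
Dlk1: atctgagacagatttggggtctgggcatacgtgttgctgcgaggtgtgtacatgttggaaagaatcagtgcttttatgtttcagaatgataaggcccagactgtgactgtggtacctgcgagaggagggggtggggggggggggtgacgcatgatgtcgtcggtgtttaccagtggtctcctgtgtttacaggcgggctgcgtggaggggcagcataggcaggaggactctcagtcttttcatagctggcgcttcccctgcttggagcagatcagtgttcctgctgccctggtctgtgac

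The Meg3 window shown held TATAAA at 25 bases before the start, with a match on the other strand that overlaps it, TGACGTCA at 57 bases before it and CCAAT at 100 bases before it. The window of another RefSeq start of Meg3, at chr12:109545398, is not shown and held none of the motifs and 1 CpG. The Dio3 promoter held TATAAA at 31 bases before the start, 4 GC box cores and 2 CCAAT matches. The Rian and Dlk1 windows held none of the 4 motifs, and that of Dlk1 is set on a start at chr12:109452823, inside the span given above. CpG dinucleotides numbered 25 in Dio3, 13 in Meg3, 9 in Dlk1 and 0 in Rian, against a median of 7 over all promoters.

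The cluster also encodes 58 microRNA hairpins in the RefSeq table, 54 of them on the plus strand, which give 113 mature microRNAs with 104 different seeds. Of these hairpins 13 lie on the plus strand within the span of Rtl1, opposite its own strand, 10 lie within Mirg and 3 within Rian. The sequences below are shown as products of the maternal RNAs, the first 4 from hairpins antisense to Rtl1 and the last pair with a shared seed, and capitals mark the seed, bases 2 to 8. Mature microRNAs were not measured, since the libraries hold 5′ ends of polyadenylated RNA.
miR-127-3p: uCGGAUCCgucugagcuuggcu
miR-136-5p: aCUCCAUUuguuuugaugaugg
miR-431-5p: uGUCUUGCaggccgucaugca
miR-433-3p: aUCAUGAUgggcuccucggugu
miR-379-3p: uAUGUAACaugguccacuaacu
miR-411-3p: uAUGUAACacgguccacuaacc

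In iPSCs the maternal RNAs Meg3 and Rian were lower than in ESCs on average, and the size of the difference varied widely between iPSC conditions. Meg3, a long non-coding RNA, ranged from 18.8 CPM through a median of 72.1 CPM to 190 CPM in the 10 iPSC libraries and from 76.7 CPM through 167 CPM to 394 CPM in the 8 ESC libraries. Of the iPSC libraries 5 lay below the lowest ESC library and 5 within the ESC range. Averaged over conditions, Meg3 was 2.57-fold lower in iPSCs (log2 difference -1.36 ± 0.19 SE, adjusted p = 1.13e-06, edgeR's quasi-likelihood test with Benjamini-Hochberg adjustment over 15630 genes). With the condition as the unit, the difference of log2(CPM + 1) was -1.39 between 5 iPSC and 4 ESC conditions (exact two-sided permutation test, p = 0.0317, where 0.0159 was the smallest p possible). The same test gave a p of 0.114 over 3 iPSC lines and 4 ESC lines, a design that cannot go below 0.0571. Most of these conditions and lines derive from TNG ESCs, so they are not the independent units that both exact tests take them for. The edgeR call for Meg3 and for Rian held in each fit without 1 library.

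Rian, the host of many small nucleolar RNAs, had 4.29, 25.7 and 78.6 CPM as lowest, median and highest of the 10 iPSC libraries, and 22.6, 59.9 and 104 CPM in the 8 ESC libraries. Its difference was -1.25 ± 0.20 on the log2 scale (adjusted p = 2.86e-05, edgeR), with 4 iPSC libraries below the lowest ESC library. The exact permutation test over the same related conditions gave -1.22 with p = 0.0794. Mirg, the host of microRNAs, had 0.350, 3.01 and 8.16 CPM in iPSCs against 1.12, 6.17 and 10.9 CPM in ESCs, and its difference of -0.93 ± 0.56 did not pass (adjusted p = 0.32, edgeR). In all, 2 of the 6 members were called lower and none higher, where 5.86% of all genes tested were called lower, 6.76% higher and 12.6% in either direction. For none of the 6 were the 2 sets of libraries fully apart, as they were for 0.301% of all genes.

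Of the paternally expressed genes none differed between iPSCs and ESCs by the test. Dio3, the deiodinase that inactivates thyroid hormones, had 0, 2.01 and 5.70 CPM in iPSCs and 0, 0.273 and 2.26 CPM in ESCs, and 5 of the 10 iPSC libraries lay above the highest ESC library. Its log2 difference was 2.35 ± 0.84 (adjusted p = 0.06, edgeR). It passed in 4 of the 18 fits that left out a single library, among them 3.86 without E14 replicate 1 (adjusted p = 0.0136, edgeR) and 3.73 without TNG MKOS ESCs replicate 1 (adjusted p = 0.0143, edgeR), the 2 ESC libraries with the most Dio3 reads. Dlk1, a membrane protein related to the Notch ligands, was at or near the floor in both, with 21 reads in all 10 iPSC libraries and 33 reads in all 8 ESC libraries. Rtl1, a protein derived from a retrotransposon and needed in the placenta, had 8 reads in iPSCs and 16 in ESCs, too few for a difference to be detectable at this depth.

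**Figure D1:**
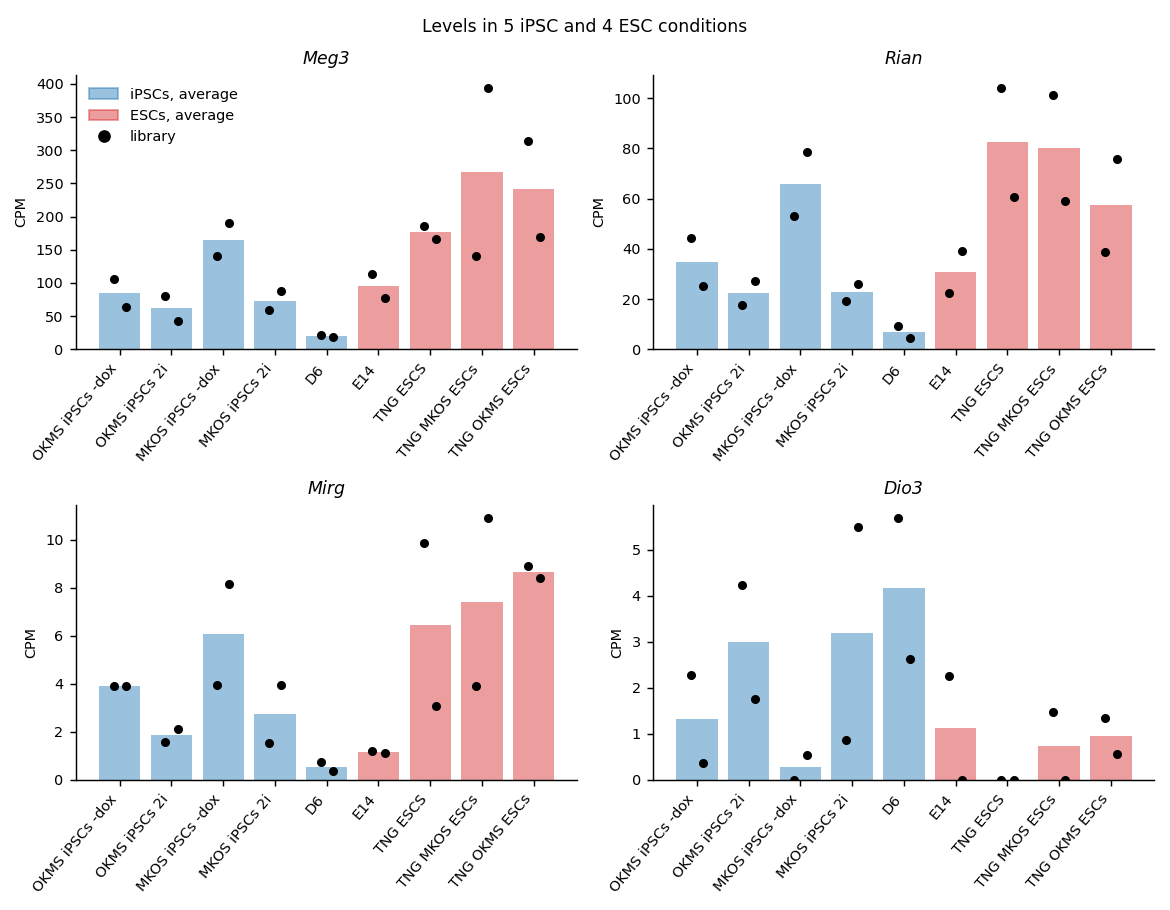
Levels of Meg3, Rian, Mirg and Dio3 in CPM on the vertical axes, for the 5 iPSC conditions (blue bars) and 4 ESC conditions (red bars). Bars are condition averages and the 2 points on each are its libraries. D6 is lowest of the iPSC conditions for Meg3 (21.1 and 18.8 CPM), Rian and Mirg and highest for Dio3. Every iPSC condition but D6 has a library within the ESC range of Meg3, and MKOS iPSCs -dox have both there.

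The iPSC conditions did not share 1 level. Meg3 had 141 and 190 CPM in MKOS iPSCs -dox, 107 and 64.3 CPM in OKMS iPSCs -dox, 58.8 and 87.8 CPM in MKOS iPSCs 2i, 79.8 and 43.2 CPM in OKMS iPSCs 2i and 21.1 and 18.8 CPM in D6. Set against the average of the ESC conditions, these averages were 84.8%, 43.9%, 37.6%, 31.6% and 10.3% of it in the same order. For Rian the order of the highest and the lowest was the same, with 105% in MKOS iPSCs -dox and 10.9% in D6, and Mirg had 102% and 9.09% there. The ESC conditions also spread, from 113 and 76.7 CPM of Meg3 in E14 through 186 and 166 CPM in TNG ESCS to 140 and 394 CPM in TNG MKOS ESCs and 314 and 169 CPM in TNG OKMS ESCs.

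D6 stood lowest of the iPSC conditions. Its Meg3 was 8.0-fold under the ESC average (log2 difference -3.00 ± 0.38, adjusted p = 9.82e-07, edgeR), and both D6 libraries lay below all 8 ESC libraries. Rian had 9.42 and 4.29 CPM in D6, again below all ESC libraries (-2.98 ± 0.42, adjusted p = 6.72e-06, edgeR). Mirg had 0.725 and 0.350 CPM, from 7 and 4 reads, below all ESC libraries but not past the test (-2.92 ± 1.16, adjusted p = 0.12, edgeR). Dio3 went the other way, with 5.70 and 2.63 CPM, above every ESC library (3.75 ± 1.05, adjusted p = 0.023, edgeR), and the Dio3 call was lost in 4 of the 10 fits without 1 library, those without either D6 library or either TNG ESCS library (adjusted p = 0.0525 to 0.25, edgeR). Against TNG ESCS alone, which had no Dio3 read, D6 was at least 29.1-fold higher, taking 3 reads over both TNG ESCS libraries as the floor.

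In the comparison of D6 with ESCs 3 of 6 members were called, where 7.27% of all genes were, and the libraries were fully apart for 4 members, as they were for 16.9% of all genes. This comparison shares its ESC libraries with that of all iPSCs, and D6 is part of the iPSC average. Without D6, and with the 2i conditions kept, the iPSC difference was -0.95 for Meg3 (adjusted p = 9.07e-04, edgeR) and -0.82 for Rian (adjusted p = 0.00935, edgeR). Both calls held there and both differences were smaller. D6 was also lower than the MKOS and OKMS iPSCs -dox, by 2.51 ± 0.39 on the log2 scale for Meg3 (adjusted p = 1.26e-04, edgeR) and by 2.75 ± 0.44 for Rian (adjusted p = 1.65e-04, edgeR), with 2 of 6 members called where 1.25% of all genes were. Without D6 replicate 2 the Rian call there was lost (adjusted p = 0.0567, edgeR).

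Where cassette and ESC line matched, no member passed the test. MKOS iPSCs -dox against TNG MKOS ESCs gave a Meg3 difference of -0.59 ± 0.39 (adjusted p = 0.92, edgeR), and the libraries overlapped. OKMS iPSCs -dox against TNG OKMS ESCs gave -1.16 ± 0.40 (adjusted p = 0.16, edgeR), and both iPSC libraries, at 107 and 64.3 CPM, lay below both ESC libraries, at 314 and 169 CPM, a separation also seen in 37.8% of all genes. These comparisons of 2 against 2 libraries called 0 of 6 members, beside 0.307% and 0.608% of all genes. DESeq2 called 0 as well, and 1 of the 6, Meg3 with OKMS, had an unadjusted p under 0.05 by edgeR. The difference between the cassettes in Meg3, 0.57 ± 0.55, did not pass either (adjusted p = 1.00, edgeR), and no member did where 0.0192% of all genes did and 898 had an unadjusted p under 0.05. Averaged over both cassettes, the -dox iPSCs were below the matched ESCs by 0.88 in Meg3 (adjusted p = 0.10, edgeR) and by 0.40 in Rian (adjusted p = 0.61, edgeR), and Dio3 turned to -0.45 there, with fewer libraries on both sides.

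Culture in 2i went with lower Meg3 and Rian in the MKOS and OKMS iPSCs. Meg3 had 64.3 to 190 CPM in the 4 -dox libraries and 43.2 to 87.8 CPM in the 4 2i libraries (log2 difference -0.93 ± 0.28, adjusted p = 0.046, edgeR). Rian had 44.3, 25.3, 53.2 and 78.6 CPM in -dox and 17.8, 27.2, 19.2 and 26.2 CPM in 2i (-1.18 ± 0.31, adjusted p = 0.018, edgeR). The ranges overlapped for both. Dio3 had a median of 0.444 CPM in -dox and 2.99 CPM in 2i and did not pass (2.33 ± 1.14, adjusted p = 0.28, edgeR). These 2 calls of 6 members stand beside 4.34% of all genes, and each was lost in 4 of the 8 fits without 1 library (OKMS iPSCs -dox replicate 1 and MKOS iPSCs -dox replicate 2 and MKOS iPSCs 2i replicate 1 for both, OKMS iPSCs 2i replicate 2 for Meg3 and replicate 1 for Rian, with adjusted p up to 0.24 by edgeR). Without the 2i conditions the iPSC average, which then still held D6, was below the ESCs, at -1.32 for Meg3 and -1.14 for Rian. D6 alone stood at -3.00 and -2.98. MKOS and OKMS iPSCs -dox had 84.8% and 43.9% of the ESC average of Meg3, and 105% and 55.5% of that of Rian.

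**Figure D2:**
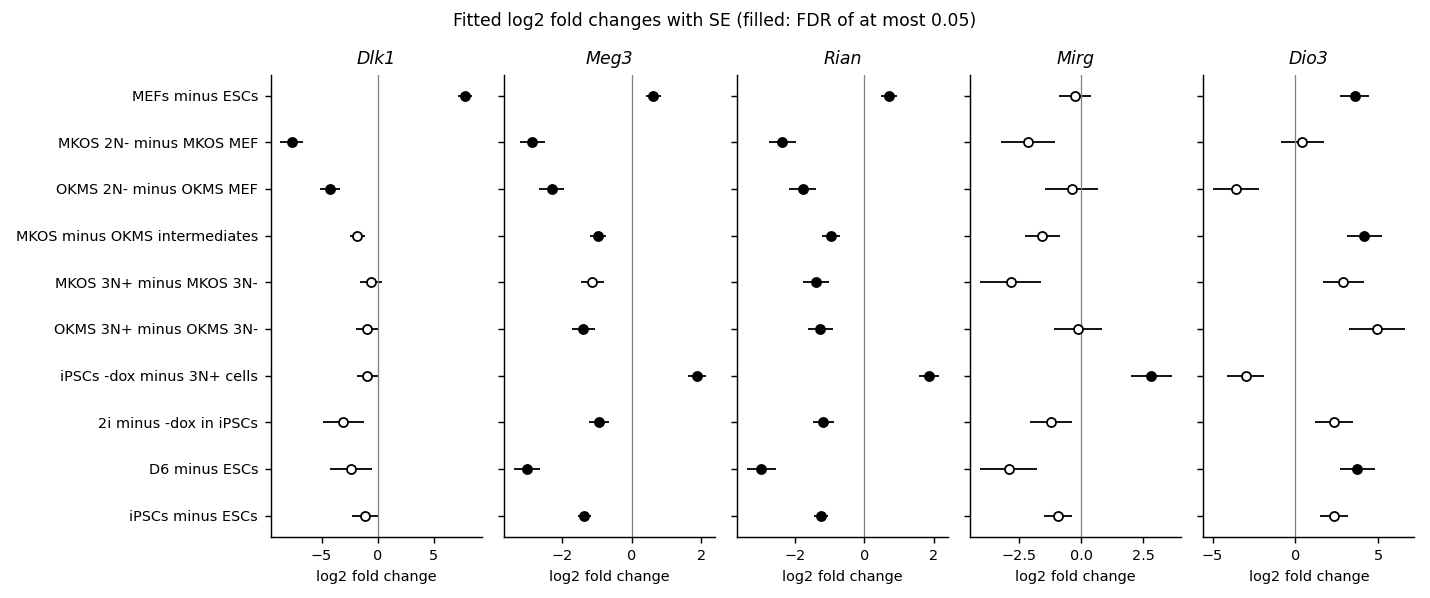
Fitted log2 fold changes of Dlk1, Meg3, Rian, Mirg and Dio3 on the horizontal axes for 10 comparisons, with bars of 1 standard error, and filled points where the adjusted p was at most 0.05. Meg3 and Rian are to the left of 0 in iPSCs minus ESCs and farther left, near -3, in D6 minus ESCs.

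In MEFs, the start of the route, the paternal gene Dlk1 was high and the maternal RNAs Meg3 and Rian were above the ESC level. Dlk1 had 71.8 and 40.9 CPM in wt MEF, 111 and 199 CPM in MKOS MEF and 40.8 and 90.4 CPM in OKMS MEF, against at most 1.20 CPM in ESCs, and no library overlapped, as was true of 33.3% of all genes (7.80 ± 0.66, adjusted p = 3.38e-13, edgeR). Dio3 had 1.89 to 6.31 CPM in the 6 MEF libraries, and its lowest lay within the ESC range (3.59 ± 0.89, adjusted p = 6.78e-04, edgeR). Meg3 had 153 to 397 CPM and Rian 79.1 to 123 CPM, with differences from ESCs of 0.63 ± 0.21 (adjusted p = 0.00899, edgeR) and 0.70 ± 0.23 (adjusted p = 0.00733, edgeR) and overlapping libraries. Mirg, at 2.37 to 6.87 CPM against 1.12 to 10.9 CPM in ESCs, did not pass (-0.24 ± 0.64, adjusted p = 0.82, edgeR). Here 4 of 6 members were called, where 60.1% of all genes were. In bulk samples such as these, fewer cells of a type and less RNA per cell cannot be told apart.

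From MEFs to the sorted 2N- (Ecad+) cells, Dlk1, Meg3 and Rian fell with both cassettes. Dlk1 had 0.510, 0.886 and 0.948 CPM in 2N- (Ecad+) MKOS cells and 1.02, 7.74 and 1.98 CPM in 2N- (Ecad+) OKMS cells, all below the MEF libraries, where 57.4% and 51.6% of all genes did not overlap (log2 difference from the MEFs of the same cassette -7.65 ± 1.03 with MKOS and -4.23 ± 0.89 with OKMS, adjusted p = 3.01e-07 and 3.14e-04, edgeR). Meg3 had 67.7, 29.5 and 39.6 CPM with MKOS (-2.84 ± 0.36, adjusted p = 8.81e-08, edgeR) and 37.5, 54.2 and 87.2 CPM with OKMS (-2.29 ± 0.35, adjusted p = 3.38e-06, edgeR). Rian fell by 2.37 with MKOS and by 1.78 with OKMS. With each cassette 3 of 6 members were called, where 27% of all genes were with MKOS and 29.2% with OKMS. None of the 3 falls differed between the cassettes by the interaction term (Dlk1 -3.41 ± 1.30, adjusted p = 0.21, edgeR, where 1.35% of all genes were called). The summed fibroblast markers fell over the same step, to 437 to 840 CPM in 2N- (Ecad+) MKOS and 73.5 to 287 CPM in 2N- (Ecad+) OKMS cells with all 10 markers detected, and their part in the falls was not tested. Dlk1 is in a gene list that the study chose on these samples, so its direction there is not independent evidence.

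The E-cadherin gate split Dlk1 in OKMS cells. Dlk1 had 44.6, 16.8 and 38.8 CPM in 2N- (Ecad-) and 16.3, 17.8 and 14.4 CPM in 3N- (Ecad-) OKMS cells, while the 6 Ecad+ libraries of the same stages had 0 to 7.74 CPM, with no overlap where 3.05% of all genes had none (-2.74 ± 0.58, adjusted p = 0.00156, edgeR). It was the 1 member of 6 called, where 7.08% of all genes were. Fibroblast markers moved with it, at 531 to 946 CPM in the Ecad- and 73.5 to 289 CPM in the Ecad+ libraries, where Twist2 was at 0 in 3N- cells, and their part was not tested. Against OKMS MEF the Ecad- cells had lower Meg3 (-1.21 ± 0.30, adjusted p = 0.00217, edgeR), lower Rian (-0.95 ± 0.33, adjusted p = 0.0312, edgeR) and lower Dio3 (-5.81 ± 1.38, adjusted p = 0.00156, edgeR), 3 of 6 members beside 24.8% of all genes. Without OKMS MEF replicate 2 the Meg3 and Rian calls were lost (adjusted p = 0.0870 and 0.17, edgeR), and the Rian call was also lost without OKMS MEF replicate 1, 2N- (Ecad-) OKMS replicate 1 or 3N- (Ecad-) OKMS replicate 2. Dio3 had no read in the 3 libraries of 2N- (Ecad-) OKMS cells, at least 27.7-fold lower than in OKMS MEF with 3 reads over the 3 libraries as the floor. Low Dio3 was not particular to the Ecad- gates. The 6 Ecad+ libraries held 13 reads and the 6 Ecad- libraries 6 (0.77 ± 1.04, adjusted p = 0.76, edgeR). From OKMS MEF to 2N- (Ecad+) OKMS cells Dio3 went from 82 to 12 reads, just short of the threshold (-3.58 ± 1.40, adjusted p = 0.0507, edgeR).

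Rtl1 was at its highest in the same OKMS cells. It had 10.1, 6.52 and 2.61 CPM in 2N- (Ecad-) OKMS cells, 5.61, 5.58 and 0 CPM in 3N- (Ecad-), 0.511, 9.03 and 0.847 CPM in 2N- (Ecad+) and 4.37, 2.62 and 0 CPM in 3N- (Ecad+). These 12 libraries held 241 of its 311 reads, against at most 0.590 CPM in the MKOS intermediates and at most 0.871 CPM in iPSCs and ESCs. Against MKOS intermediates the difference did not pass (Ecad+ cells, -3.14 ± 1.17, adjusted p = 0.0714, edgeR), and replicates of 1 gate ranged from no read to several CPM. D6 had no Rtl1 read in either library.

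Among cells without Nanog-GFP, the cassettes differed in 3 members. Averaged over 2N- and 3N- (Ecad+) cells, Meg3 was lower with MKOS, at 29.5 to 67.7 CPM in 6 libraries, than with OKMS, at 37.5 to 159 CPM (-0.97 ± 0.23, adjusted p = 0.00325, edgeR). Most of this lay in 3N- cells, which averaged 54.9 CPM with MKOS and 139 CPM with OKMS. In 2N- cells the averages were 45.6 and 59.6 CPM, with overlapping libraries, and the gates were not tested apart. Rian was likewise lower, at 14.5 to 39.9 CPM against 22.2 to 59.5 CPM (-0.97 ± 0.25, adjusted p = 0.00787, edgeR), a call lost without 2N- (Ecad+) OKMS replicate 3 (adjusted p = 0.0529, edgeR). Dio3 was higher with MKOS, at 4.28, 5.46, 7.72, 2.68, 0.472 and 2.40 CPM against at most 0.705 CPM, or 184 reads against 13 (4.18 ± 1.07, adjusted p = 0.0074, edgeR). The libraries overlapped for all 3, and 3 of 6 members were called where 11.9% of all genes were. Fibroblast markers were higher in the same MKOS cells, at 437 to 993 CPM against 73.5 to 289 CPM. The part of these markers in the differences of Meg3, Rian and Dio3 was not tested.

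Gain of Nanog-GFP among 3N cells went with lower Rian with both cassettes and lower Meg3 with OKMS. With OKMS, Meg3 had 159, 141 and 116 CPM in 3N- and 42.4, 48.3 and 47.4 CPM in 3N+ cells (-1.38 ± 0.33, adjusted p = 0.0075, edgeR), and Rian had 51.4, 59.5 and 51.1 CPM and then 13.2, 23.8 and 22.2 CPM (-1.28 ± 0.37, adjusted p = 0.028, edgeR). With MKOS, Rian had 20.7, 17.9 and 39.9 CPM in 3N- and 9.25, 6.32 and 10.4 CPM in 3N+ cells (-1.40 ± 0.37, adjusted p = 0.041, edgeR), while Meg3, at 52.5, 46.6 and 65.6 CPM and then 28.2, 12.05 and 26.9 CPM, did not pass (-1.12 ± 0.33, adjusted p = 0.068, edgeR). That Meg3 difference did pass with the replicate number as a block (adjusted p = 0.0382, edgeR) and with no filter (adjusted p = 8.44e-04, edgeR). It also passed with library totals (0.0371, edgeR) and by DESeq2 (0.0293). It did not pass with DESeq2 size factors (0.0655, edgeR), with only the compared libraries (0.0591, edgeR) or without the 7 sorted libraries named below (0.104, edgeR). No 3N+ library overlapped a 3N- library of its cassette in either RNA, a separation seen in 22.1% of all genes with OKMS and 24.2% with MKOS. That made 2 of 6 members called with OKMS, where 6.26% of all genes were, and 1 of 6 with MKOS, where 1.58% were. The MKOS call did not last: without the 7 sorted libraries that the study left out of its averages, the Rian difference was -0.97 (adjusted p = 0.16, edgeR), and it was lost in 5 of the 6 fits without 1 library (all but 3N- (Ecad+) MKOS replicate 2, adjusted p up to 0.22, edgeR). The Rian call with OKMS was lost in 4 of 6 such fits (3N- replicates 1 and 2 and 3N+ replicates 1 and 3, adjusted p up to 0.17, edgeR). The differences between 3N+ and 3N- cells were not shown to depend on the cassette for any member (0 of 6 by edgeR). Of all genes 0.0256% were called there, and 1163 had an unadjusted p under 0.05.

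Dio3 was higher on average in 3N+ than in 3N- cells with both cassettes, without passing the test. It had 2.68, 0.472 and 2.40 CPM in 3N- (Ecad+) MKOS cells and 11.4, 19.95 and 6.06 CPM in 3N+ (Ecad+) MKOS cells, the highest of all 20 conditions (2.90 ± 1.25, adjusted p = 0.24, edgeR). These MKOS libraries did not overlap, as was true of 24.2% of all genes. In 3N+ (Ecad+) OKMS cells Dio3 had 2.65, 0 and 1.72 CPM, or 33 reads, against 1 read in 3N- (Ecad+) OKMS cells (4.93 ± 1.68, adjusted p = 0.0705, edgeR). Those OKMS libraries overlapped. Meg3, Rian and Dio3 of the 3N+ cells did not overlap between the cassettes, where 17.2% of all genes did not, and none of the 6 members passed (Dio3 2.75 ± 1.26, adjusted p = 0.37, and Meg3 -1.20 ± 0.34, adjusted p = 0.0816, edgeR, where 0.685% of all genes were called and 1902 had an unadjusted p under 0.05). By DESeq2 3 members passed.

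With each cassette the 3N+ cells had the lowest average Meg3 of the MEF and sorted conditions, and established iPSCs -dox held more. The 6 libraries of 3N+ cells had 12.05 to 48.3 CPM of Meg3 and the 4 of iPSCs -dox 64.3 to 190 CPM (1.87 ± 0.25, adjusted p = 4.25e-06, edgeR). Rian had 6.32 to 23.8 CPM and then 25.3 to 78.6 CPM (1.86 ± 0.28, adjusted p = 3.88e-05, edgeR). The libraries were fully apart for both, as for 3.33% of all genes. Mirg had 0, 0 and 0.308 CPM in 3N+ (Ecad+) MKOS, 0.504, 0 and 7.58 CPM in 3N+ (Ecad+) OKMS cells and 3.92 to 8.16 CPM in iPSCs -dox (2.82 ± 0.83, adjusted p = 0.048, edgeR), a call lost in 8 of the 10 fits without 1 library (all but 3N+ replicate 3 of either cassette, adjusted p 0.0661 to 0.14, edgeR) and without the 7 libraries (adjusted p = 0.083, edgeR). In all 3 of 6 members were called, where 3.29% of all genes were. Fibroblast markers were at 102 to 594 CPM in 3N+ cells and 7.84 to 28.0 CPM in iPSCs -dox, and their part in these differences was not tested. The D6 level of Meg3, 21.1 and 18.8 CPM, lay within the range of the 3N+ (Ecad+) MKOS cells, at 28.2, 12.05 and 26.9 CPM.

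**Figure D3:**
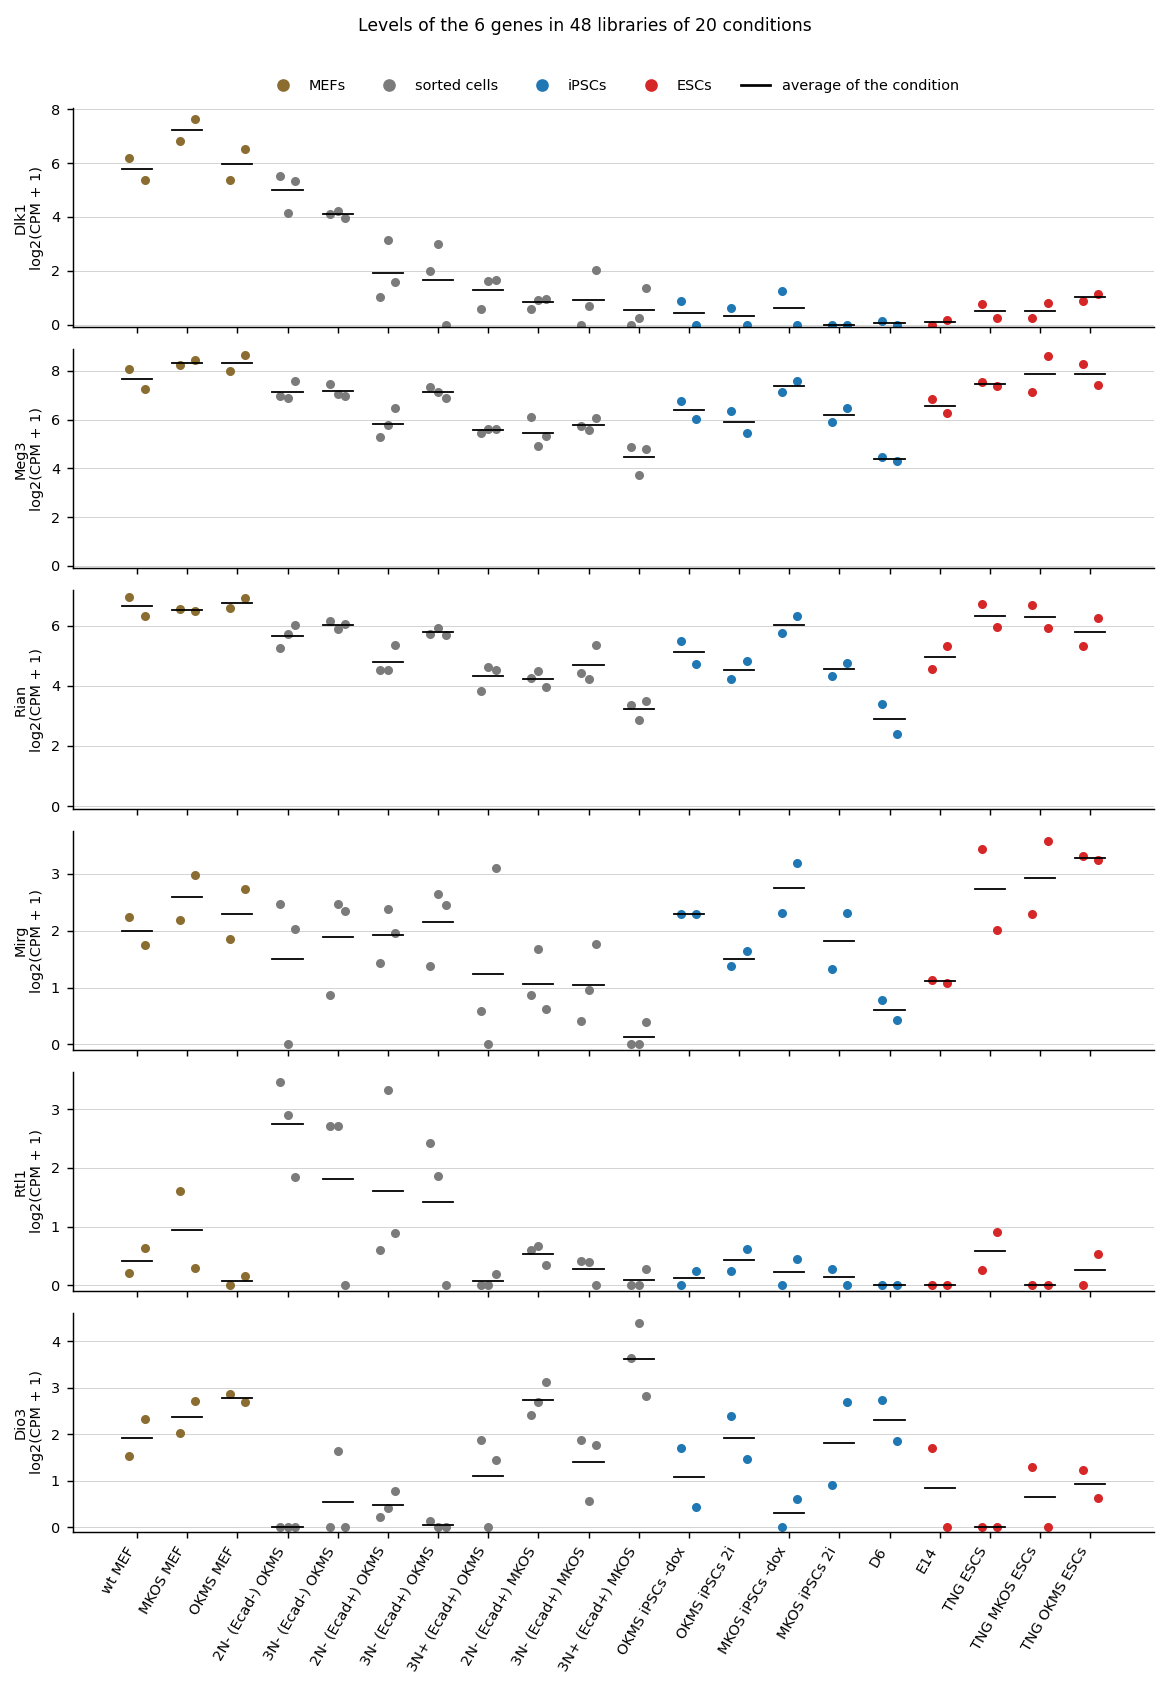
Level of each of the 6 members as log2(CPM + 1) on the vertical axes, with a point for each of 48 libraries and a line at the average of each of the 20 conditions on the horizontal axis. Dlk1 drops from MEFs to the Ecad+ cells, and Meg3 and Rian are lowest in 3N+ (Ecad+) MKOS cells and D6.

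Over all 20 conditions Meg3 and Rian moved together. The correlation of their average log2(CPM + 1) was r = 0.974 (Spearman's rho 0.955), that of Meg3 with Mirg 0.850 and that of Meg3 with Dio3 -0.365. These points share libraries and depth, and the values are a description. The ratio of Meg3 to Rian reads had a median of 2.51 over the 48 libraries and lay between 2 and 4 in 33 of them. It was highest in TNG OKMS ESCs replicate 1, at 8.07, TNG MKOS ESCs replicate 2, at 6.68, and E14 replicate 1, at 5.01. In each of these ESC conditions the library with more Meg3 had less Rian, which condition averages do not show. Ordered by level, neighbouring conditions overlapped in their libraries for 17 of 19 pairs for Meg3, 18 of 19 for Rian and 19 of 19 for Dio3, so the order within most of the scale is not resolved.

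**Figure D4:**
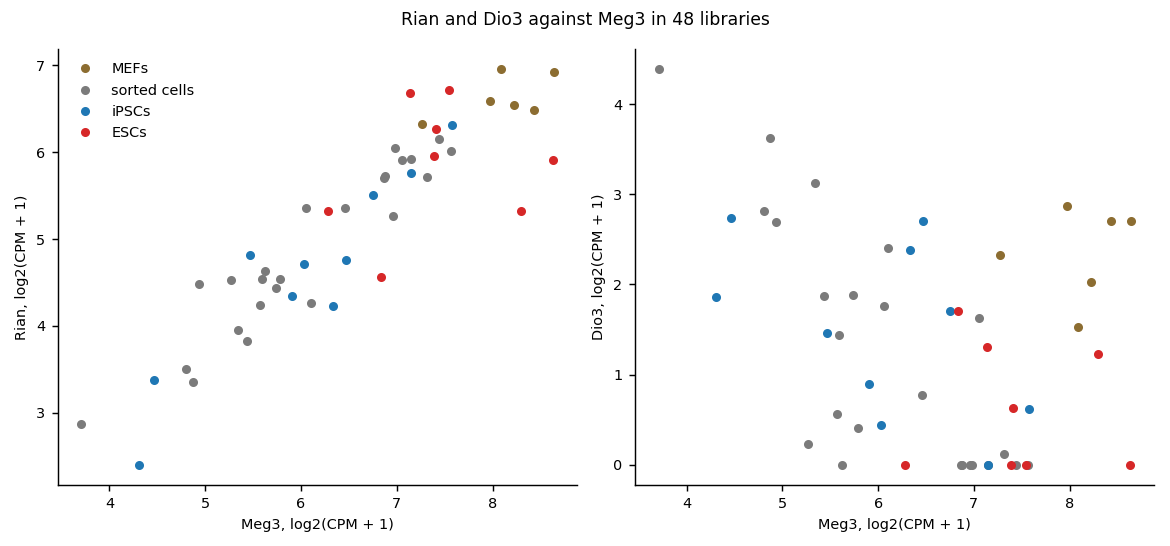
Rian (left) and Dio3 (right) against Meg3 in the 48 libraries, all axes as log2(CPM + 1), with a point for each library coloured by MEFs, sorted cells, iPSCs or ESCs. Rian rises with Meg3 over the libraries as a whole, with some ESC libraries off that trend, and Dio3 does not.

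Genes whose pattern over the 20 conditions was most like that of a member were ranked by Pearson's r among 15624 other genes. For Meg3 they were Mir1906-2_loc1 (0.916), a row inside Meg3 that shares its reads, Arl2 (0.903) and AF357425 (0.891), a small nucleolar RNA row within Rian. For Rian they were the same 3 genes, with r of 0.877 to 0.890. For Dlk1 they were Hand2 (0.965), Ednrb (0.965) and Lrrn3 (0.964). For Dio3 they were Hebp1 (0.879), 1700025K23Rik (0.809) and Myof (0.804). Mirg had no likeness above that to Txnrd1, 0.806.

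Other RNAs of the cluster and its neighbours were followed in lists. Of 53 rows of microRNAs and other cluster RNAs in the table, 5 had enough reads to be tested, and in iPSCs against ESCs 1 of them was lower, AF357355, a small nucleolar RNA row within Rian (-2.02 ± 0.62, adjusted p = 0.025, edgeR). The median of the 5 was -2.02, the value of AF357355 itself, and 5.86% of all genes were called lower. AF357355 averaged 5.36 CPM in iPSCs -dox, 1.00 CPM in iPSCs 2i and 5.82 CPM in ESCs, and had 4 reads in D6. AF357359 and AF357425, also within Rian, averaged 9.65 and 7.12 CPM in iPSCs and 14.3 and 11.3 CPM in ESCs. With the cassette matched, none of the 5 was called, and the medians were -0.17 with MKOS and -0.73 with OKMS. Of 17 tested genes beside the cluster, 1 was lower, Yy1, a zinc finger factor (-0.60 ± 0.17, adjusted p = 0.0147, edgeR), and none higher, a share of 5.88% where 12.6% of all genes were called, and their median log2 difference was -0.34. Of 17 tested genes of the pathways of Dlk1 and Dio3, the Notch receptors and ligands and the thyroid hormone enzymes and receptors, 1 was higher, Hes1, a target of Notch (0.59 ± 0.19, adjusted p = 0.038, edgeR), again 5.88% of the list.

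Of 22 genes that write, read or erase imprints, 6 were lower and 2 higher in iPSCs than in ESCs, where 5.86% and 6.76% of all genes were. The lower ones included Dnmt3l, Dnmt3b and Dnmt3a, the machinery of new DNA methylation (-1.67 ± 0.29, -1.62 ± 0.33 and -1.04 ± 0.23), Jarid2, a Polycomb partner (-0.82 ± 0.17), and Trim28, a corepressor that guards imprints (-0.49 ± 0.12). Dppa3, which protects imprints in the early embryo, was higher (2.45 ± 0.42, adjusted p = 8.26e-05, edgeR). The Dnmt3a difference lay in the 2i conditions and D6 only. Averages were 137 and 99.2 CPM in MKOS and OKMS iPSCs -dox, against 66.1 to 120 CPM in the ESC conditions. The 4 2i libraries had 12.8 to 20.5 CPM, and D6 averaged 24.7 CPM. With the cassette matched, 0 of the 22 genes were called with MKOS or with OKMS, and 2 and 7 had an unadjusted p under 0.05 (edgeR). In 2i against -dox iPSCs the same Dnmt3a, Dnmt3b and Dnmt3l were the 3 lower genes of this list, and in D6 against ESCs they were lower again with Jarid2. Meg3 and Rian were lower in the same comparisons, which partly share libraries, and the part of these genes in that was not tested.

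Other imprinted genes changed in both directions in iPSCs. Of 41 tested, 8 were higher and 8 lower than in ESCs, against the 6.76% and 5.86% of all genes, and the median log2 difference was 0.21. The lower ones included Grb10, an adaptor that restrains growth (-2.66 ± 0.26, adjusted p = 1.16e-09, edgeR), Phlda2, which restrains placental growth (-2.75 ± 0.43), and Cdkn1c, an inhibitor of the cell cycle (-3.32 ± 0.53). The higher ones included H19, a maternally expressed non-coding RNA (2.95 ± 0.41, adjusted p = 1.31e-06, edgeR), Plagl1, a zinc finger factor, and Nnat, neuronatin, both at 0 reads in every TNG, TNG MKOS and TNG OKMS ESC library, so that their fitted folds are not given. Plagl1 had 0.867 and 1.59 CPM in E14, 0 to 1.07 CPM in iPSCs -dox, and 5.60 to 17.3 CPM in 2i and D6 libraries. Nnat had 3.85 and 4.34 CPM in E14, within the 0 to 6.39 CPM of iPSCs. With the cassette matched, H19 was higher and Grb10 lower with MKOS, and H19, Sgce, Nnat and Mcts2 were higher with OKMS. These were 4.88% and 9.76% of those tested, where 0.307% and 0.608% of all genes were called.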

How the data were processed

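5′-end RNA sequencing counts of the 48 libraries were analysed as deposited. The authors had aligned the reads with Bowtie 0.12.7 and counted them per transcript, without normalization, and their own summary columns over all libraries were used only for the share of reads with a unique position. Positions in the table fitted GRCm38 (81.45% of 10324 plus-strand genes lay within 200 bases of a RefSeq GRCm38.p6 start, and 4.146% of 10758 within that distance of an NCBIM37 start). Rows of repeats (1554) and spike-in RNAs (104) were left out of library sizes and tests. Members and gene lists were chosen with earlier results of these data known. The genes named from lists were up to 6 per list with the smallest p among those called in iPSCs against ESCs, and the genes named for likeness were the top 3 by Pearson's r. Those for Rtl1 are not reported here.

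Counts of all 48 libraries were fitted with edgeR 4.0.16 in R 4.3.3 (TMM, filterByExpr by condition, glmQLFit and glmQLFTest, 1 coefficient per condition), and genes were called at a Benjamini-Hochberg adjusted p of at most 0.05 over 15630 genes. Fits without 1 library kept the trended dispersion of the full fit. Comparisons of D6 with iPSCs -dox, of 3N+ cells between cassettes, of OKMS Ecad- cells with MEFs and the later interaction terms were added after the values had been seen. Alternatives were library totals, no filter, the compared libraries only, a replicate block, DESeq2 1.42.0, and fits without D6, 2i, E14 or 7 sorted libraries. In simulated counts 93% of 200 genes changed by 4-fold between iPSCs and ESCs were called, and 48.25% of 400 between D6 and ESCs.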

Additional observations from a re-analysis of the deposited data

Results flagged for a closer look

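Of 18 groups of 4 to 10 libraries examined across the members, 2 held a library far from the others, and chance sets apart about 1 in 20 groups. Mirg in MKOS iPSCs -dox replicate 2, at 8.16 CPM from 46 reads, was the highest of the 10 iPSC libraries, and the nearest had 3.96 CPM. Rtl1 in MKOS MEF replicate 1, at 2.05 CPM from 20 reads, was the highest of the 6 MEF libraries, and the nearest had 0.548 CPM. None of 18 interaction terms between cassettes was past the threshold for a member.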

How the results depend on the processing

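Of 602 refitted log2 differences of members, 550 kept their direction and side of the threshold, 44 lost a call, 7 gained one and 1 reversed, and the causes were not tested. With iPSCs -dox set against TNG MKOS and TNG OKMS ESCs only, a smaller set of libraries, the iPSC difference was -0.88 for Meg3, -0.40 for Rian and -0.45 for Dio3, and 0 members passed. Dio3 in iPSCs passed at 2.35 with no filter, 2.92 without E14 and 2.40 by DESeq2, and ranged from 1.58 to 3.86 in fits without 1 library. Meg3 in 2i lost its call with library totals (-0.82) and with only the compared libraries (-0.94), where 1 member was left each time. The exact test of Meg3 over lines gave -1.67, in a design that cannot pass, and that of Rtl1 turned to 0.034 at a pseudocount of 0.1.

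Members called rose to 1 for OKMS iPSCs with no filter, 5 for OKMS 2N- cells against MEFs by DESeq2, 2 for the OKMS E-cadherin gates with no filter, 1 for the cassette difference from MEFs to 2N- cells with no filter, and 5 for Ecad- cells against OKMS MEF with the compared libraries only. For MKOS 3N+ against 3N- cells they were 2 with the replicate block, with no filter, with library totals and by DESeq2, and 0 without the 7 sorted libraries. For 3N+ cells of MKOS against OKMS they were 1 with the block, 1 without the 7 libraries, and 3 with no filter and by DESeq2. Replicate numbers are shared labels only: same-numbered sorted libraries deviated together with a mean r of 0.145 (56 of 84 pairs over 0.1), and iPSC and ESC libraries with 0.0023. With the block 4 members in place of 3 passed in MKOS against OKMS intermediates and in Ecad- cells against OKMS MEF, Meg3 joined Rian in MKOS 3N+ against 3N- cells (adjusted p = 0.0382, edgeR), 1 in place of 0 passed for 3N+ cells between cassettes, and no other count of members changed.

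In fits without 1 library, members called ranged from 0 to 2 for 2i, 0 to 1 for MKOS 3N+ against 3N-, 1 to 2 for OKMS 3N+ against 3N-, 1 to 2 for the E-cadherin gates, 1 to 2 for D6 against iPSCs -dox, 0 to 1 for 3N+ cells between cassettes and 1 to 4 for Ecad- cells against MEFs.

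Counts over all genes moved by more than 1.5 times in 14 comparisons under the other settings: from 1972 to 729 without 2i and to 219 with -dox lines only for iPSCs against ESCs, from 48 to between 92 and 229 for MKOS iPSCs, from 95 to between 40 and 498 for OKMS iPSCs, from 679 to 357 and 1025 for 2i, from 247 to between 375 and 887 for MKOS 3N+ against 3N-, from 979 to 428 and 1481 for OKMS 3N+ against 3N-, from 1858 to 1208 and from 1107 to 634 for the cassettes and E-cadherin gates without the 7 libraries, from 515 to 987 for iPSCs -dox against 3N+, from 196 to between 75 and 510 for D6 against iPSCs -dox and from 107 to between 175 and 484 for 3N+ cells between cassettes. The 3 cassette interactions went from 3 to at most 87, from 211 to at most 624 and from 4 to at most 163. Depth limits Dlk1, Rtl1, Mirg and Dio3 most, whose reads were few in iPSCs and ESCs.

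With library totals the split of all genes called higher and lower moved by over 10 percentage points in 9 of 19 comparisons: from 75 and 20 to 52 and 120 for OKMS iPSCs, 809 and 328 to 622 and 485 for D6 against ESCs, 296 and 383 to 380 and 304 for 2i, 87 and 160 to 55 and 320 for MKOS 3N+ against 3N-, 478 and 501 to 312 and 891 for OKMS 3N+ against 3N-, 1045 and 813 to 1353 and 650 for the cassettes, 733 and 374 to 580 and 491 for the E-cadherin gates, 54 and 53 to 94 and 41 for 3N+ cells between cassettes, and 2 and 2 to 1 and 2 for the cassette difference from 3N- to 3N+. The median log2 difference of all genes then stood at -0.21 for OKMS iPSCs, -0.21 and -0.27 for 3N+ against 3N- with MKOS and OKMS, 0.13 for the cassettes, 0.17 for 3N+ cells between cassettes, and 0.25 and 0.18 for the cassette differences of iPSCs and of MEF to 2N-. With DESeq2 size factors none of the 19 splits moved as far.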

Other observations

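The lists of genes that act on imprints and of other imprinted genes also changed where the members fell, from MEFs to 2N- (Ecad+) cells. Of 22 genes that write, read or erase imprints, 14 were higher and 1 lower with MKOS, and 17 were higher and none lower with OKMS (edgeR, where 27% and 29.2% of all genes were called in either direction). Dnmt3b, Dnmt3l, Dppa3 and Jarid2 were among the higher genes with both cassettes. Of 41 other imprinted genes, 4 were higher and 14 lower with MKOS, and 4 were higher and 17 lower with OKMS. Igf2, Igf2r, Cdkn1c, Peg3, Mest and Grb10 were lower with both. Fibroblast markers fell over the same step, Dcn is in both lists, and their part was not tested.

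Of 17 tested genes beside the cluster, 2 were higher and 2 lower with MKOS, and 1 was higher and 1 lower with OKMS, shares of 23.53% and 11.76% that do not exceed those 27% and 29.2% of all genes, with Hsp90aa1, a chaperone, higher in both. Of 17 tested genes of the Notch and thyroid hormone pathways, 2 were higher and 5 lower with MKOS, and 3 were higher and 4 lower with OKMS. Notch4 and Jag2, a receptor and a ligand of the Notch pathway, were higher and Hes1 lower with both.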
